A study of Mus musculus with 20 samples.

Results

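The genes described here encode the Wnt ligands, their Frizzled and LRP receptors, the R-spondins and their Lgr receptors, the secreted inhibitors, the feedback genes and the TCF/LEF factors. They were chosen by name among the protein-coding rows of the expression table, with no measured value used, which gave 56 of the 54986 genes listed. RNA-Seq was performed on NMuMG cells, a non-transformed epithelial line from the mouse mammary gland, and on lines derived from it, with 2 libraries for each of 10 conditions. The untreated NMuMG cells were the control for NMuMG cells treated with TGFβ and for NMuMG cells carrying an shRNA against hnRNP E1 (E1KD). hnRNP E1 is the RNA-binding protein encoded by Pcbp1. M1P cells were grown out of a primary tumor, and L1P cells out of lung metastases, that E1KD cells had formed after injection into the mammary fat pad of immunodeficient NOD/SCID mice. Both carry the hnRNP E1 shRNA, were selected with puromycin after isolation and were sequenced from 2D culture, each as 1 line. In the second set, NMuMG cells with an empty vector were the control for clones cl12 and cl16, single clones that overexpress the long noncoding RNA Platr18. E1KD cells were also given a second shRNA, either a scrambled one (E1KD SCR, the control) or one against Platr18 (E1KD Platr18KD), and both lines still carry the hnRNP E1 shRNA. All lines were grown in the same serum-containing medium.

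Wnt proteins are lipid-modified secreted ligands that bind a Frizzled receptor together with the co-receptor LRP5 or LRP6. In the canonical branch this stops the destruction of β-catenin, which then works with TCF/LEF factors at its target genes, among them the feedback inhibitor Axin2. Rnf43 and Znrf3 are membrane ubiquitin ligases that remove Frizzled from the cell surface, and R-spondins, bound to Lgr4 or Lgr5, take these ligases away. In the mammary gland Wnt4 is known for its part in ductal side branching, and Wnt signaling maintains stem cells.

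RefSeq promoters, from 250 bases before to 50 bases after a gene start on GRCm38.p6, were found for 37 of the 56 genes and for 13 of the 24 genes that could be tested. To show RefSeq start sites of genes whose changes are reported here, 4 promoters are printed 5′ to 3′ on the strand of the gene. They are those of Axin2 (chr11:108920099-108920398, plus strand), Wnt9a (chr11:59306680-59306979, plus strand), Wnt4 (chr4:137277385-137277684, plus strand) and Fzd1 (chr5:4758167-4758466, minus strand). These starts can differ from those of the genes as measured. The Fzd1 window lies wholly before the measured gene (chr5:4753839-4758035), and the measured Wnt4 gene begins at 137277489, elsewhere in its window. Capitals mark the TCF/LEF core CTTTGA and the Smad box CAGAC on either strand (TCAAAG and GTCTG in reverse), which do not overlap each other here.
Axin2: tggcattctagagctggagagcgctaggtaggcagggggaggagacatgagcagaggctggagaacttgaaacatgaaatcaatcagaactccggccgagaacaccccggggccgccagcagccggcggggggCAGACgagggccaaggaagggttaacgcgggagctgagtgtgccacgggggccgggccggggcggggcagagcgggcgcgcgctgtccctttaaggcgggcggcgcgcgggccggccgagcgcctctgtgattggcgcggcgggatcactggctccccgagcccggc
Wnt9a: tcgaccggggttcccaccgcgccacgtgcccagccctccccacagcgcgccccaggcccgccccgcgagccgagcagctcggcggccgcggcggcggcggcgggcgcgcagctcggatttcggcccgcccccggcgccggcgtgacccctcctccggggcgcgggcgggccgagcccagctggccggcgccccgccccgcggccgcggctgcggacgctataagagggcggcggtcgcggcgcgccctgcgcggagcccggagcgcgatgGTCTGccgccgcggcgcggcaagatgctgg
Wnt4: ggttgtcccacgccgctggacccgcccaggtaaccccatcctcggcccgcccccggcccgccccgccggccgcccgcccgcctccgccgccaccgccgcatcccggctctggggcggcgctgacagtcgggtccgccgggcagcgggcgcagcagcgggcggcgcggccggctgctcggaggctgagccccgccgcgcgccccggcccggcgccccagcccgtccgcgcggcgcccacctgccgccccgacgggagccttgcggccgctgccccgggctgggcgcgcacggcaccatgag
Fzd1: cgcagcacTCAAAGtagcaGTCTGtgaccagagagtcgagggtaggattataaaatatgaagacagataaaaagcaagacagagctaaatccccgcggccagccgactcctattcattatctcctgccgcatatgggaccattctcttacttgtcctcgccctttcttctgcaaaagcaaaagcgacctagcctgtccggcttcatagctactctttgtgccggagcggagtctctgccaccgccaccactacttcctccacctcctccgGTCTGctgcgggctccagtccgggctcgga
The TCF/LEF core was found in the promoter of 1 of the 13 tested genes, Fzd1, and in 16% of the 32851 promoters in the table. In Fzd1 it begins 242 bases before the RefSeq start, which is not the start of the gene as measured. The Smad box, the short motif bound by the TGFβ-activated Smad proteins, was found in 7 of the 13 and in 49.6% of all promoters. These letters are a description of this window only.

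The libraries were of 2 kinds. The NMuMG, TGFβ-treated, E1KD, M1P and L1P libraries had 333 to 492 CPM (read counts scaled to 1 M reads) of the mitochondrial ribosomal RNA mt-Rnr2 and were scaled to 50.8 to 60.0 M reads. The vector, Platr18 and E1KD shRNA libraries had 113900 to 165100 CPM of it and were scaled to 63.0 to 147.3 M reads. Levels were therefore compared only within a kind. At these depths 3 reads on a gene were worth 0.050 to 0.0591 CPM in the first kind and 0.0204 to 0.0477 CPM in the second. E1KD replicate 1 stood apart: the listed genes of that library summed to 0.729 of a full CPM total against 0.567 in replicate 2, and its values were higher than those of replicate 2 by a median of 0.29 on the log2 scale. Pcbp1 was at 287 and 312 CPM in NMuMG and at 16.6 and 14.2 in E1KD, and at 32.3 CPM in both empty vector libraries against 3.28 and 3.46 in E1KD SCR. Of 12 markers of luminal epithelium, between 5 and 7 reached 1 CPM in both libraries of a condition. E-cadherin (Cdh1) was at 70.2 to 237 CPM in the 20 libraries, but Epcam was at most 0.0167 CPM. The marker sums of leukocytes, endothelium, adipocytes and lung epithelium reached at most 7.25 CPM in any library, and the fibroblast sum was at most 1.68 CPM except after TGFβ, where it was 31.3 and 39.3 CPM.

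Few of the 56 genes were expressed at an appreciable level. Only 24 reached 1 CPM in at least 2 libraries, the limit for testing: 5 of 19 Wnt ligands, 9 of 10 Frizzled receptors, both LRP co-receptors, 3 of 6 R-spondin and Lgr genes, 3 of 5 ligase and feedback genes, 2 of 4 TCF/LEF factors and 0 of the 10 secreted inhibitors. Some of the 24 reached this limit only through conditions where they were high. These include Fzd9 in E1KD, Lgr5 in E1KD and E1KD SCR, and Wnt7a in E1KD and after TGFβ. Fzd8 did so in NMuMG and after TGFβ, and Rspo3 after TGFβ and in cl12. The values that admitted these genes to the test also enter their calls. Of the 32 genes not tested, 24 stayed under 0.1 CPM in every library, and the highest value of any was 0.887 CPM, for Lef1 in E1KD. The secreted Frizzled-related proteins Sfrp1, Sfrp2, Sfrp4 and Sfrp5, the Dickkopf proteins Dkk1 to Dkk4, Wif1 and Notum were all in the group that could not be tested, as was Wnt5a, the best-known ligand of the β-catenin-independent branch, with at most 0.0185 CPM. Fewer cells that express a gene and less of its RNA per cell cannot be told apart in such bulk samples.

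**Figure D1:**
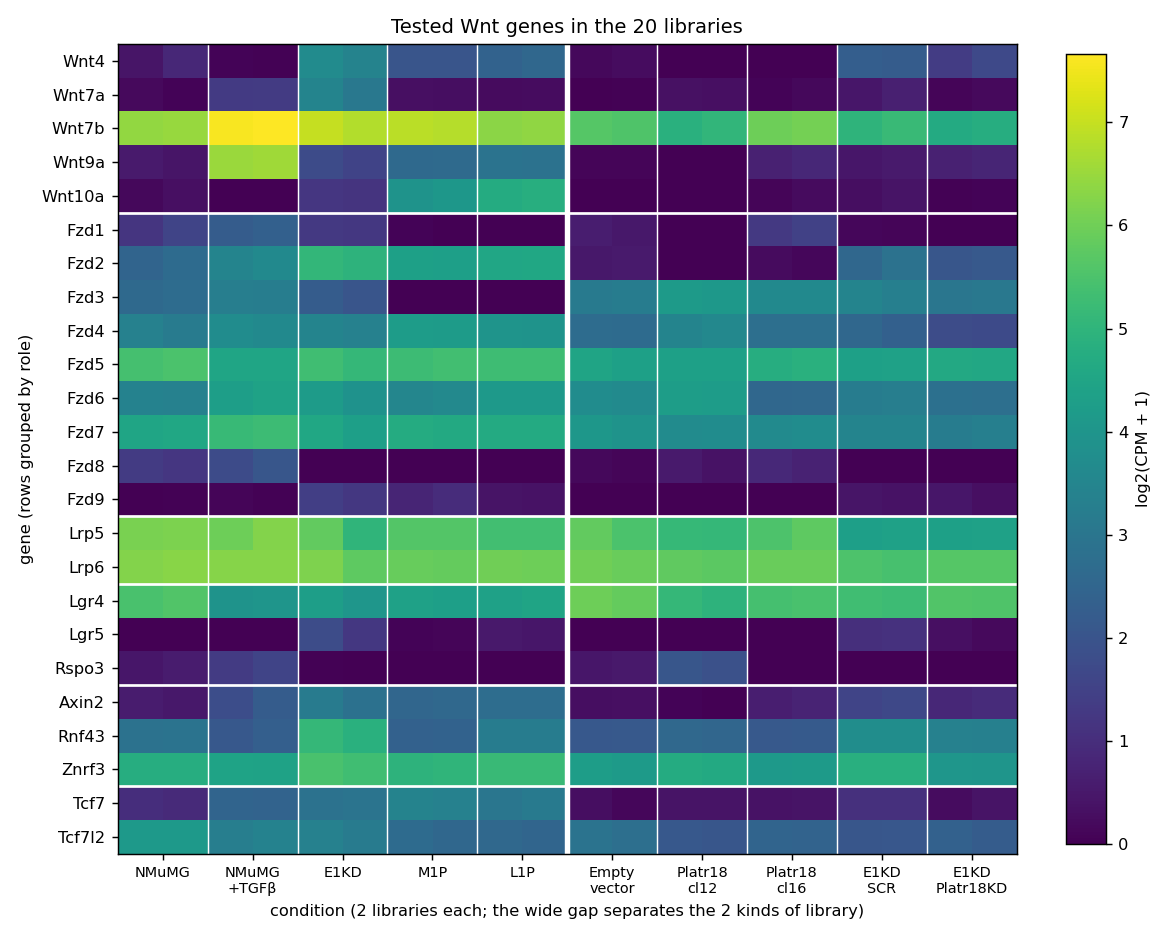
Heat map of log2(CPM + 1) for the 24 tested genes (rows, grouped by role) in the 20 libraries (columns, 2 for each condition), with the 2 kinds of library on either side of the wide gap. Wnt7b, Lrp5 and Lrp6 are bright in every column, whereas Wnt9a is bright after TGFβ, where its libraries reached 90.6 and 95.0 CPM.

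Wnt7b was the ligand with the highest level per length in every condition. Divided by the exon length of each gene, the 19 ligands together gave 17.8 and 18.7 CPM per kb in the NMuMG libraries, and Wnt7b made up 97.5% and 97.2% of this sum. In the TGFβ-treated libraries the sum was 67.1 and 70.8 CPM per kb, with Wnt7b at 58.1% and 58.3% and Wnt9a at 40.6% and 40.3%. In E1KD the sum was 33.4 and 28.2 CPM per kb, and Wnt4 and Wnt7a made up between 8.30% and 9.48% each. Wnt10a reached 18.1% and 19.9% of the ligand sum in M1P and 34.6% and 35.3% in L1P, and stayed under 2% in each of the other libraries. The ligand sum of a condition thus came from 1 gene or from a few genes that differed between conditions. Reads of Wnt7b cannot be told apart from those of an antisense gene that overlaps it if strand was not used in the counting, but that gene was listed at no more than 2.54 CPM.

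Fzd5 and Fzd7 led the Frizzled receptors of NMuMG cells, at mean levels of 6.22 and 4.90 CPM per kb. Fzd7 (7.94 CPM per kb) led after TGFβ and Fzd2 (8.64 CPM per kb) in E1KD. Fzd6 is listed on 2 rows: besides the named row, which lies on an alternate sequence, there is an unnamed row for the gene at chr15:39006034-39038188, and the named row was 0.927 to 1.04 times as high as that row in every library. The values of Fzd6 given here are those of the named row. The order after TGFβ depends on this choice. The sum of both Fzd6 rows was 37.8 and 40.1 CPM there, against 34.6 and 37.4 CPM for Fzd7. Their exon lengths are 4818 and 4532 bases.

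The first comparison asked what TGFβ, used to induce the epithelial-mesenchymal transition (EMT), did to these genes in NMuMG cells. A gene was called differentially expressed at a limma p under 0.001 and a change of at least 1 on the log2(CPM + 1) scale, and adjusted p-values are limma's with Benjamini-Hochberg adjustment over 17103 genes. Of the 24 genes tested, 5 were called higher after TGFβ, where 5.85% of all genes tested were, and 1 was called lower, where 7.67% of all genes were. The median change was 0.49 for the 24 genes and -0.08 for all genes. The genes that rose were 3 ligands, Axin2 and Tcf7. The fibroblast sum rose with the treatment, mainly through Col1a1 at 30.1 and 38.4 CPM. Col1a2, Col3a1 and Lum were at 0 CPM in both conditions, and Dcn was at most 0.0167 CPM. Pdgfra was at 1.12 and 0.833 CPM against 0.531 and 0.547 CPM in NMuMG. The luminal sum was lower, at 1767 and 2094 CPM against 2947 and 3001 CPM. The leukocyte sum was 6.48 and 7.25 CPM against 2.75 and 2.76 CPM in NMuMG. This was mainly Csf1r, at 4.45 and 4.76 CPM against 1.13 and 1.28 CPM. Ptprc stayed at or under 0.0354 CPM, and Lyz2 was lower after TGFβ. The sum of 6 basal or myoepithelial markers was 3.36 and 4.17 CPM against 0.226 and 0.425 CPM, and that of 8 mesenchymal markers was 1732 and 1965 CPM against 748.5 and 768.1 CPM. Their part in these results was not tested.

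Wnt9a, a ligand of limb joints and of the hematopoietic stem cell niche (chr11:59306928-59333552), was at 0.478 and 0.358 CPM in the NMuMG libraries and at 90.6 and 95.0 CPM after TGFβ. The treated libraries lay far above the control libraries, and the ratio of the means was 222 (log2 fold change 6.05, standard error 0.08, adjusted p = 5.97e-16). Its neighbor Wnt3a begins on the opposite strand, 16175 bases away, and had at most 1 read in each of these 4 libraries. Wnt7b (chr15:85535437-85582473), which acts in lung and kidney development, was at 85.0 and 89.1 CPM before and at 190.9 and 202.1 CPM after TGFβ, a 2.26-fold rise (log2 fold change 1.16, standard error 0.09, adjusted p = 3.67e-08). Wnt7a (chr6:91363981-91411363), a ligand of limb dorsal patterning and of the female reproductive tract, was at 0.142 and 0.0566 CPM, or 8 and 3 reads, before treatment and at 1.49 and 1.53 CPM after it. Its log2 fold change was 1.19 (standard error 0.10, adjusted p = 9.70e-08).

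Wnt4 (chr4:137277489-137299726) was not called: its 0.354 and 0.811 CPM in NMuMG stood against 0.0501 and 0.0333 CPM, or 3 and 2 reads, after TGFβ. Among the ligands that could not be tested, Wnt1 had 0.568 and 0.683 CPM after TGFβ, or 34 and 41 reads, against 1 read and 0 reads in NMuMG. Wnt10b, which lies 11706 bases from Wnt1 on chromosome 15, had 0.317 and 0.30 CPM after TGFβ, or 19 and 18 reads, against 0 in NMuMG. All of these levels were under 1 CPM.

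Axin2 (chr11:108920349-108950783), a negative regulator and widely used reporter of β-catenin signaling, was at 0.513 and 0.396 CPM in NMuMG and at 2.52 and 3.70 CPM after TGFβ. The groups did not overlap, and the 6.84-fold rise was called (log2 fold change 1.48, standard error 0.12, adjusted p = 8.80e-08). With only these conditions in the fit it lost its call. Tcf7 (chr11:52252371-52283014), which encodes the factor TCF1, rose 4.78-fold, from 0.991 and 0.886 to 4.52 and 4.45 CPM (log2 fold change 1.5, standard error 0.07, adjusted p = 2.73e-10). Tcf7l2, the other TCF gene tested, was at 16.7 and 16.4 CPM in NMuMG and at 8.68 and 9.55 CPM after TGFβ and was not called.

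The receptor that fell was Lgr4 (chr2:109917647-110014257), an R-spondin receptor, which was at 42.9 and 46.7 CPM in NMuMG and at 14.2 and 14.8 CPM after TGFβ. Both treated libraries lay below both control libraries, 3.08-fold lower by the means (log2 fold change -1.56, standard error 0.09, adjusted p = 1.07e-09). No Frizzled was called, although 3 stood just under the limit of 1, with log2 fold changes of 0.98 for Fzd2, 0.98 for Fzd6 and 0.92 for Fzd1. With both Fzd6 rows summed, Fzd6 was called higher, from 19.4 and 18.5 to 37.8 and 40.1 CPM. R-spondin 3 (Rspo3), which potentiates Wnt signaling, stood at 0.93, and Fzd5 at -0.96. When the libraries were scaled by their median ratios instead, 10 of the 24 genes were called, 9 higher and 1 lower, against 1239 higher and 1079 lower of all genes in place of 1000 and 1311.

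The second comparison set E1KD, the cells silenced for hnRNP E1, against untreated NMuMG cells. The first kind of library holds no line with a scrambled shRNA or an empty vector. Carrying the shRNA vector therefore cannot be told apart from the silencing here. Between E1KD and NMuMG, 9 of the 24 genes were called higher and 2 lower, where 6.44% and 2.99% of all genes tested were. The median change was 0.53 for the 24 genes and 0.17 for all genes. The shift of all genes was 0.02 when libraries were scaled by their median ratios, with 746 genes higher and 708 lower in place of 1102 and 512, and under that scaling 9 of the 24 were called higher and 3 lower. The genes that rose were 3 ligands, 2 Frizzled receptors, Lgr5, Axin2, Rnf43 and Tcf7. The mesenchymal marker sum was 1729 and 2325 CPM in E1KD, also above NMuMG, and the basal or myoepithelial sum was 0.665 and 1.08 CPM; their part in these results was not tested.

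**Figure D2:**
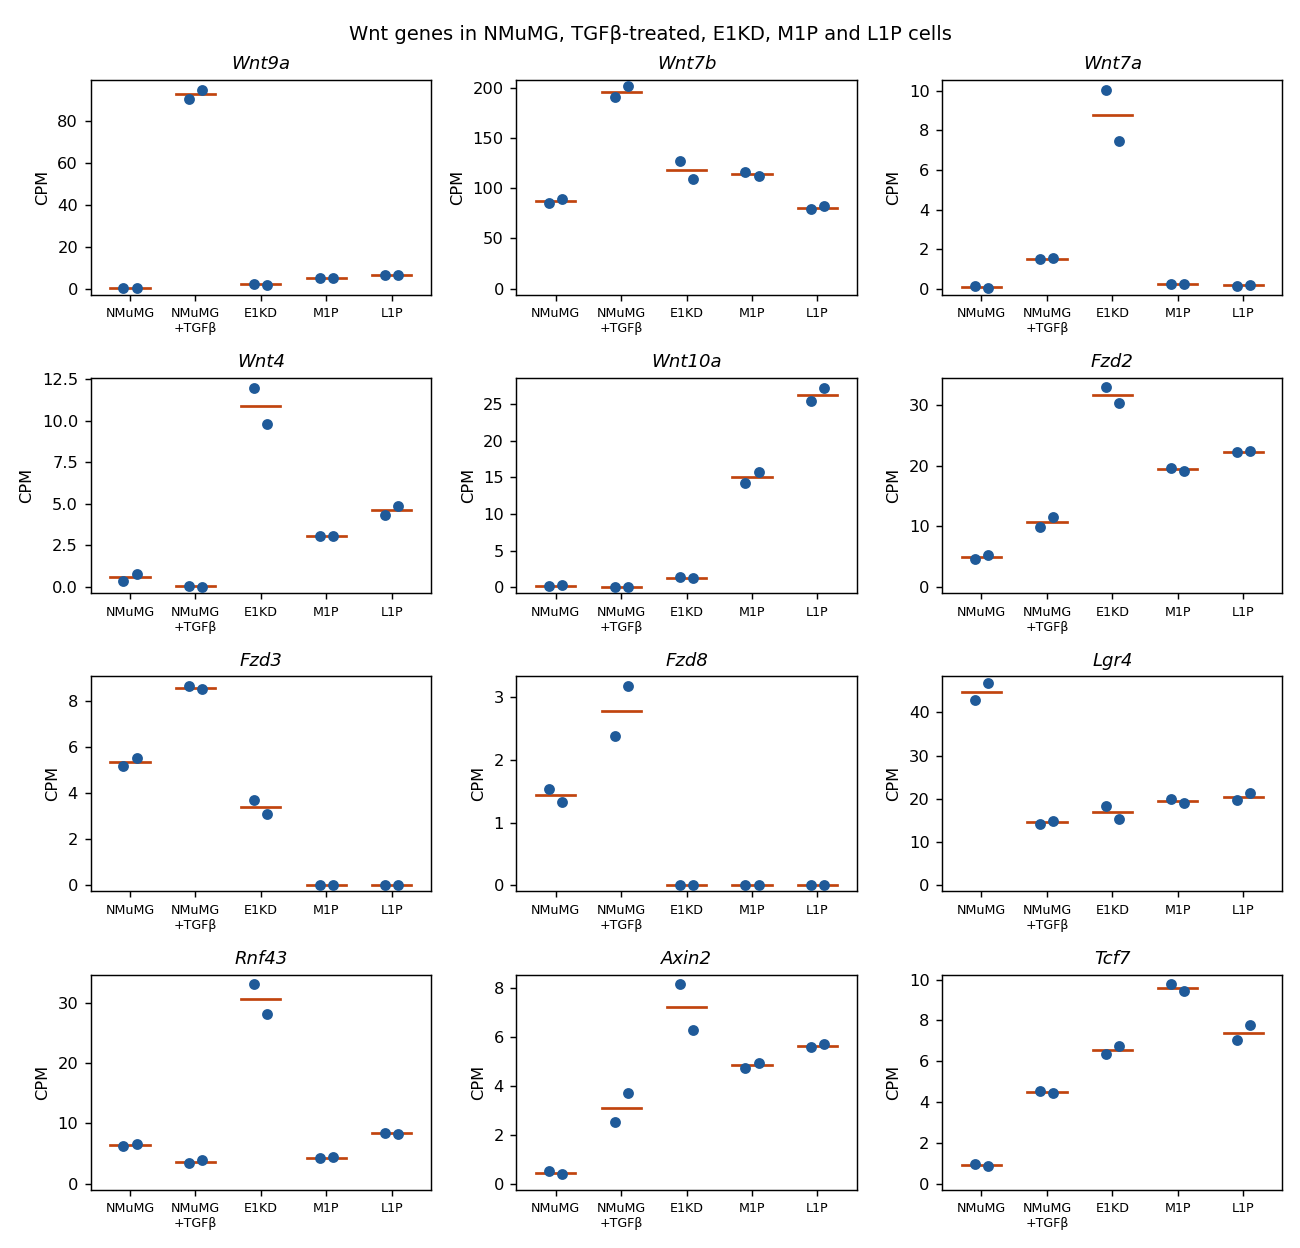
CPM of 12 genes in each library (points, 2 for each condition) for the NMuMG control, the TGFβ treatment, E1KD and the M1P and L1P lines, with the mean as a line; each panel has its own linear axis from 0. Wnt9a stands out after TGFβ (90.6 and 95.0 CPM), Wnt4, Wnt7a and Rnf43 in E1KD, and Wnt10a in M1P and L1P.

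Among the ligands, Wnt7a was at 10.1 and 7.47 CPM in E1KD, against 0.142 and 0.0566 in NMuMG (log2 fold change 3.14, standard error 0.10, adjusted p = 2.49e-12). Wnt4 was at 12 and 9.81 CPM in E1KD, an 18.7-fold rise over the NMuMG mean (log2 fold change 2.92, standard error 0.13, adjusted p = 1.38e-10). The NMuMG libraries differed in Wnt4 (0.354 and 0.811 CPM), and without NMuMG replicate 2 the rise was 30.8-fold. Wnt9a was at 2.40 and 1.94 CPM, 5.19-fold higher than in NMuMG (log2 fold change 1.16, adjusted p = 2.54e-08). For each of these 3 ligands both E1KD libraries lay above both NMuMG libraries. Wnt7b, at 127 and 109 CPM, was not called (log2 fold change 0.43, adjusted p = 7.8e-04).

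Among the Frizzled receptors, Fzd2 (chr11:102604396-102608058) was at 4.55 and 5.36 CPM in NMuMG and at 33.0 and 30.3 CPM in E1KD. This was a 6.39-fold rise with no overlap between the groups (log2 fold change 2.46, standard error 0.11, adjusted p = 1.36e-10). Fzd9 (chr5:135248938-135251230), with 0 and 2 reads in NMuMG, was at 1.65 and 1.35 CPM in E1KD (log2 fold change 1.29, adjusted p = 1.07e-09). Only the 2 E1KD libraries reached 1 CPM of Fzd9, so it was tested only through the group where it was high. Fzd8 (chr18:9212856-9216201) went the other way: it was at 1.54 and 1.32 CPM in NMuMG and had no read in either E1KD library. Against a floor of 3 reads per library it was at least 25.0-fold lower in E1KD (log2 fold change -1.28, adjusted p = 1.68e-08). The other 6 Frizzled receptors tested had log2 fold changes between -0.53 (Fzd3) and 0.68 (Fzd6).

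Both R-spondin receptors were called, in opposite directions. Lgr5 (chr10:115450311-115587780), a stem cell marker in several epithelia, had no read in NMuMG and 2.46 and 1.35 CPM in E1KD. This was at least 34.7-fold higher against the floor (log2 fold change 1.51, standard error 0.12, adjusted p = 6.99e-08). Lgr4 was at 18.5 and 15.4 CPM in E1KD, 2.65-fold lower than in NMuMG (log2 fold change -1.36, standard error 0.09, adjusted p = 7.23e-09). Lgr4 and Lgr5 lost their calls when the fit held no other conditions. Lgr5 reached 1 CPM in 4 libraries, those of E1KD and E1KD SCR, and was tested only through them.

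Axin2, at 8.17 and 6.30 CPM in E1KD, was 15.9-fold higher than in NMuMG (log2 fold change 2.49, standard error 0.12, adjusted p = 3.84e-10). Rnf43 (chr11:87662722-87735539), a ligase that is itself a β-catenin target, rose 4.77-fold, from 6.34 and 6.52 to 33.1 and 28.2 CPM (log2 fold change 2.09, standard error 0.09, adjusted p = 5.47e-11). Tcf7 was at 6.38 and 6.73 CPM, a 6.98-fold rise (log2 fold change 1.96, standard error 0.07, adjusted p = 1.78e-11). Tcf7l2, the other TCF gene tested, was lower, at 9.39 and 8.04 CPM in E1KD against 16.7 and 16.4 CPM in NMuMG. It was not called in the main fit but was called lower under median ratio scaling and equal sums. Lef1, too low to be tested, had 0.887 and 0.597 CPM in E1KD, or 45 and 32 reads, and no read in NMuMG. Lrp5 and Lrp6 were not called. The E1KD libraries differed in Lrp5, at 55.9 and 31.6 CPM, and both lay below the 68.2 and 69.6 CPM of NMuMG.

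**Figure D3:**
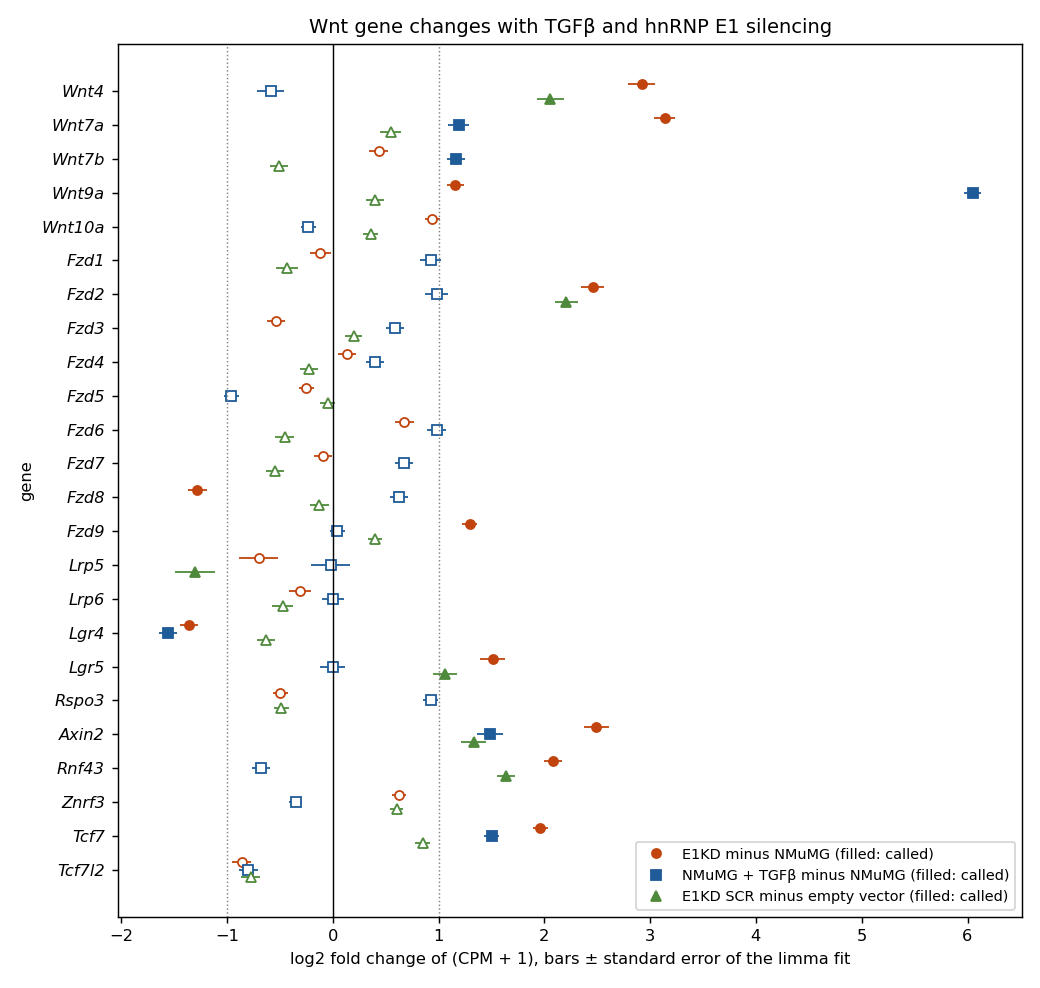
Log2 fold changes on the log2(CPM + 1) scale (points) with the standard error of the limma fit (bars) for the 24 tested genes in 3 comparisons; filled points were called and the dotted lines mark a change of 1. Wnt9a after TGFβ (6.05) lies farthest to the right, and Wnt4, Fzd2, Lgr5, Rnf43 and Axin2 are filled on the right in both silencing comparisons.

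TGFβ-treated and E1KD cells share the NMuMG control, so the changes above are not independent, and the 2 states were compared with each other directly. In E1KD, 8 of the 24 genes were higher than after TGFβ and 5 were lower, where 17.2% and 6.17% of all genes were. Scaling by median ratios changed this split to 7 higher and 8 lower, and that of all genes from 2938 and 1055 to 1779 and 1759. Lower in E1KD was Wnt9a, 42.8-fold by the means (log2 fold change -4.89, standard error 0.08, adjusted p = 3.38e-15). Also lower were Fzd8 (-1.91), Rspo3 (-1.43), Fzd3 (-1.12) and Fzd1 (-1.04). Rspo3 had 1.52 and 1.97 CPM after TGFβ and 2 reads and 0 reads in E1KD. Higher in E1KD were Wnt4 (log2 fold change 3.51, adjusted p = 1.03e-11), Rnf43 (2.76), Wnt7a (1.95), Lgr5 (1.51), Fzd2 (1.48), Fzd9 (1.25), Wnt10a (1.17) and Axin2 (1.01). Axin2 lost its call under median ratio scaling and equal sums, without E1KD replicate 1 and without TGFβ-treated replicate 1, and Fzd1 lost its call without TGFβ-treated replicate 2. With only these conditions in the fit, 8 genes were called in place of 13, and of all genes 835 were higher and 531 lower in place of 2938 and 1055.

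The tumor line M1P was compared with E1KD, the cells it came from. Here 1 of the 24 genes was called higher, where 1.16% of all genes were, and 6 were called lower, where 2.43% were. The median over all genes was -0.17, and -0.01 after scaling by median ratios, which changed the split of all genes from 198 higher and 416 lower to 318 and 298. Under that scaling 3 of the 24 genes were called higher, with Fzd4 and Wnt9a added, and 6 lower. Wnt10a (chr1:74791516-74804179), a ligand of skin, hair and tooth development, was at 1.32 and 1.22 CPM in E1KD and at 14.3 and 15.7 CPM in M1P. This was an 11.8-fold rise without overlap (log2 fold change 2.82, standard error 0.07, adjusted p = 9.20e-13). The adjacent gene Wnt6 did not exceed 0.275 CPM in the 20 libraries.

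The other called genes were lower in M1P. Wnt7a was at 0.244 and 0.230 CPM, 36.9-fold below the E1KD mean (log2 fold change -2.97, standard error 0.10, adjusted p = 1.51e-11). Rnf43 was at 4.19 and 4.36 CPM, 7.17-fold lower (log2 fold change -2.58, standard error 0.09, adjusted p = 1.51e-11). Wnt4 was at 3.06 and 3.08 CPM, 3.55-fold lower (log2 fold change -1.54, adjusted p = 4.71e-07). For these 3 genes both M1P libraries lay below both E1KD libraries. Fzd3 (chr14:65192449-65262463), a receptor known from axon guidance and planar cell polarity, was at 3.72 and 3.09 CPM in E1KD and had no read in M1P. It was at least 64.5-fold lower against the floor (log2 fold change -2.13, standard error 0.08, adjusted p = 8.66e-11). Fzd1 had 3 reads and 1 read in M1P against 1.40 and 1.39 CPM in E1KD (log2 fold change -1.21, adjusted p = 5.08e-07). Lgr5 was at 0.0524 and 0.0709 CPM in M1P (log2 fold change -1.43, adjusted p = 3.58e-07). Axin2 and Tcf7, at 4.75 and 4.96 and at 9.79 and 9.43 CPM in M1P, were not called. With only E1KD and M1P in the fit, Wnt4 and Lgr5 lost their calls.

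Between L1P and M1P, 0 of the 24 genes were called by limma, where 0.743% of all genes were called higher and 0.468% lower. At an unadjusted p under 0.05, 7 genes were higher and 4 were lower in L1P, where 17.7% and 11.3% of all genes were. With a pseudocount of 0.1, Lgr5 was called higher and Fzd9 lower, where 1.58% and 1.14% of all genes were. Rnf43 (8.38 and 8.31 CPM in L1P) had a log2 fold change of 0.83 and Wnt10a (25.4 and 27.2 CPM) one of 0.77, with adjusted p-values of 1.0e-05 and 2.8e-06. Fzd3 and Fzd8 had no read in either line.

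**Figure D4:**
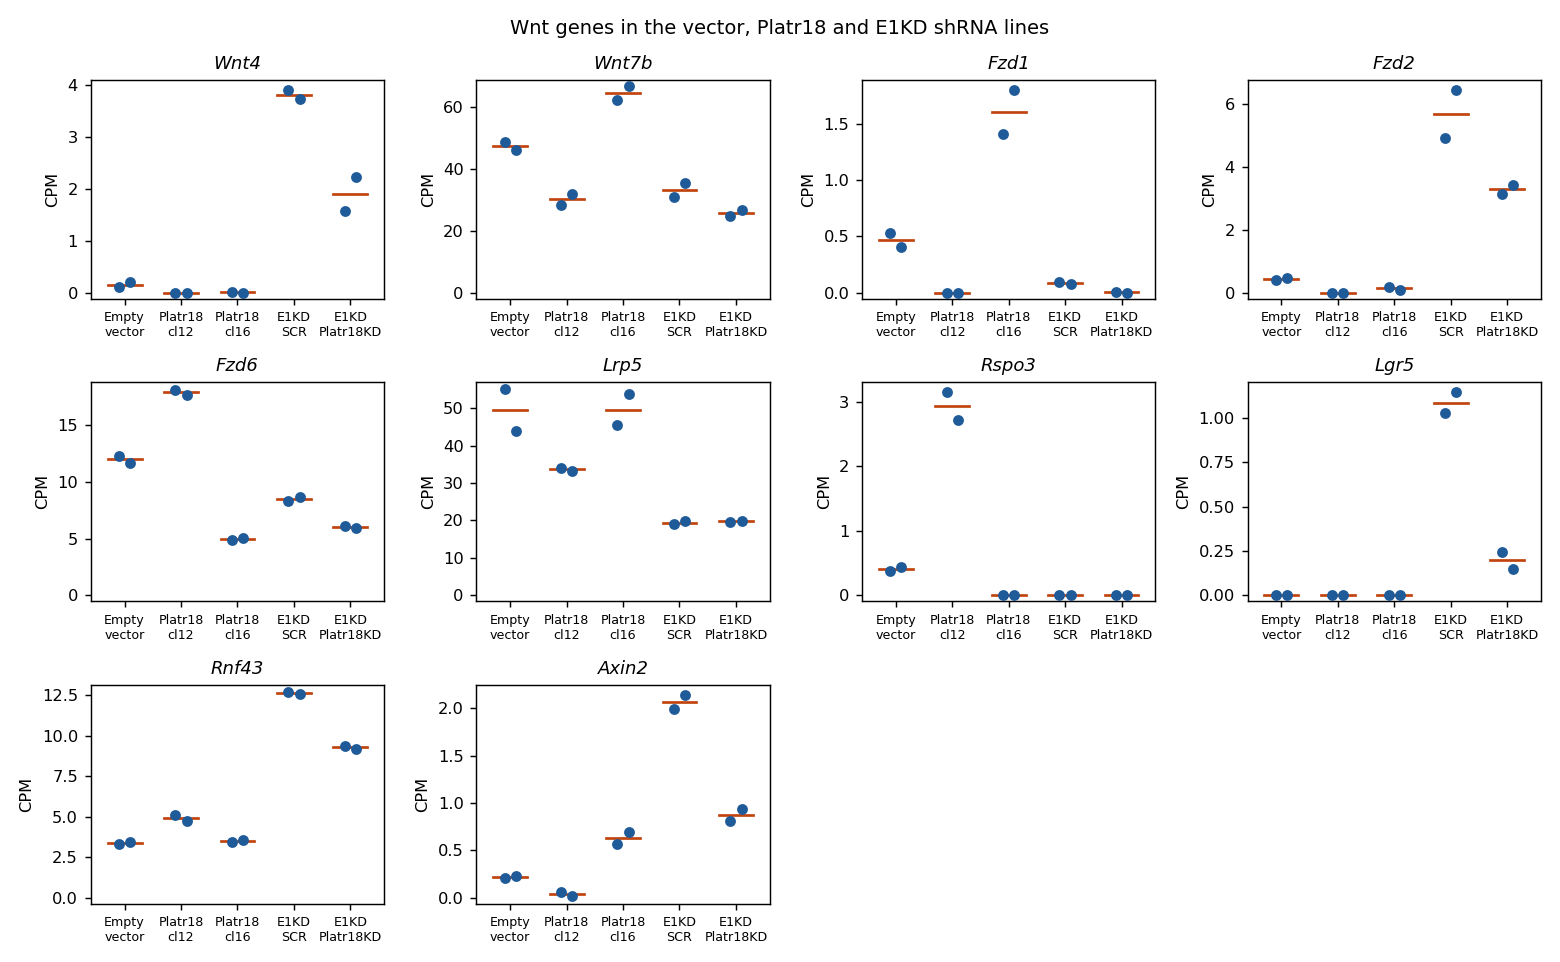
CPM of 10 genes in each library (points, 2 for each condition) of the empty vector, Platr18 cl12, Platr18 cl16, E1KD SCR and E1KD Platr18KD lines, with the mean as a line; each panel has its own linear axis from 0. Wnt4, Fzd2, Lgr5, Rnf43 and Axin2 are highest in E1KD SCR, Rspo3 and Fzd6 in cl12, and Fzd1 and Wnt7b in cl16.

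The second set of lines holds the hnRNP E1 silencing again, in E1KD SCR against the empty vector. Vector and shRNA differ between these lines beside the silencing and cannot be told apart from it. Of the 24 genes, 5 were called higher in E1KD SCR, where 2.91% of all genes were, and 1 was called lower, where 3.07% were. Fzd2 was at 0.411 and 0.478 CPM with the empty vector and at 4.94 and 6.47 CPM in E1KD SCR, a 12.8-fold rise (log2 fold change 2.21, standard error 0.11, adjusted p = 6.97e-10). Wnt4 went from 0.110 and 0.203 CPM to 3.90 and 3.72 CPM (log2 fold change 2.06, standard error 0.13, adjusted p = 1.11e-08). Rnf43 rose 3.74-fold, from 3.30 and 3.45 to 12.7 and 12.6 CPM (log2 fold change 1.64, standard error 0.09, adjusted p = 1.23e-09). These are a receptor, a ligand and a ligase that had also been called higher in E1KD against NMuMG. E1KD SCR cells are E1KD cells given another shRNA, so shared calls are not an independent repeat of the silencing. Axin2 rose 9.46-fold, from 0.206 and 0.232 to 1.99 and 2.14 CPM (log2 fold change 1.33, standard error 0.12, adjusted p = 6.02e-07). Lgr5 had no read with the empty vector and 1.03 and 1.14 CPM in E1KD SCR, at least 25.7-fold higher against the floor (log2 fold change 1.06, adjusted p = 4.48e-06). Its change was under 1 when libraries were scaled to equal sums. In each of these genes the groups did not overlap. Lrp5 (chr19:3584828-3686564), the co-receptor, was 2.56-fold lower, from 55.1 and 43.8 to 18.9 and 19.7 CPM (log2 fold change -1.30, standard error 0.19, adjusted p = 5.38e-05).

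The 2 silencing changes were set against each other in the same fit, as the E1KD change minus the E1KD SCR change. Of the 24 genes, 5 differed, where 3.51% of all genes did. The difference was 2.59 for Wnt7a (standard error 0.14, adjusted p = 1.06e-08), 1.16 for Axin2, 1.13 for Fzd6, 1.11 for Tcf7 and -1.15 for Fzd8. For Tcf7 the ratios of the means were 6.98 in E1KD and 7.002 in E1KD SCR, from control means of 0.939 and 0.153 CPM, so the ratios were of the same size where the log2(CPM + 1) values differed. Its difference was 0.44 and not called with a pseudocount of 0.1. Axin2 also lost this call with that pseudocount, at 0.96. Wnt7a was at 0.392 and 0.604 CPM in E1KD SCR and at 0.0137 and 0.0290 CPM with the empty vector, with a log2 fold change of 0.55. Fzd8 also had no read in E1KD SCR, but its empty vector level was 0.110 and 0.0724 CPM to begin with. Without E1KD replicate 1, 3 genes differed in place of 5, since Axin2 and Fzd6 fell out. Under median ratio scaling Wnt7a and Fzd8 remained.

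Silencing of Platr18 asked what this RNA contributes in E1KD cells. Platr18 was at 2.92 and 3.10 CPM in E1KD SCR and at 0.136 and 0.170 CPM in E1KD Platr18KD. The E1KD SCR level was near that of the empty vector (3.68 and 3.06 CPM). In the first kind of library, E1KD had 17.9 and 14.6 CPM against 1.24 and 1.45 CPM in NMuMG. Between E1KD Platr18KD and E1KD SCR, limma called 0 of the 24 genes, where 0.485% of all genes were called higher and 0.994% lower. At an unadjusted p under 0.05, 14 of the 24 genes were lower and 4 were higher, where 17.6% and 13.1% of all genes were. The median change was -0.32 for the 24 genes and -0.02 for all genes. With a pseudocount of 0.1, 5 genes were called, all lower: Axin2, Lgr5, Tcf7, Wnt10a and Wnt7a. Under that setting 1% of all genes were called higher and 2.7% lower. On the main scale the values nearest the limit were -0.82 for Znrf3 (adjusted p = 4.13e-07), -0.80 for Lgr5, -0.74 for Wnt4, -0.73 for Tcf7, and -0.71 for Axin2 and for Fzd4. Znrf3 was at 27.7 and 27.5 CPM in E1KD SCR and at 15.4 and 15.1 CPM in E1KD Platr18KD. Wnt4 was at 1.56 and 2.23 CPM with Platr18 silenced, against 3.90 and 3.72 without. Axin2 was at 0.808 and 0.940 CPM, against 1.99 and 2.14. For Znrf3, Wnt4 and Axin2 both libraries with Platr18 silenced lay below both controls, by less than 1 on the log2(CPM + 1) scale.

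Overexpression of Platr18 in NMuMG cells was read in 2 clones with 3092 and 3096 CPM (cl12) and 813 and 820 CPM (cl16) of Platr18, against 3.68 and 3.06 CPM with the empty vector. For the mean of both clones against the empty vector, limma called 0 of the 24 genes, where 0.427% of all genes were called higher and 1.03% lower. At an unadjusted p under 0.05, 10 genes were higher and 5 were lower, where 18.3% and 20.1% of all genes were. With a pseudocount of 0.1, Fzd8 and Wnt7a were called higher and Fzd2 and Wnt4 lower, where 1.08% and 2.51% of all genes were. Between the clones, 2 genes were called higher in cl16 and 2 lower, where 2.71% and 1.68% of all genes were.

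Rspo3 (chr10:29452416-29535867) was at 3.15 and 2.71 CPM in cl12, had no read in cl16, and was at 0.370 and 0.434 CPM with the empty vector. It was at least 70.3-fold lower in cl16 than in cl12 (log2 fold change -1.97, standard error 0.07, adjusted p = 5.12e-11). Fzd6 was at 18.1 and 17.7 CPM in cl12 and at 4.90 and 5.01 CPM in cl16, 3.62-fold lower, with the empty vector between them at 12.3 and 11.7 CPM (log2 fold change -1.67, standard error 0.09, adjusted p = 3.18e-09). Fzd1 (chr5:4753839-4758035) had no read in cl12 and 1.41 and 1.80 CPM in cl16, at least 35.5-fold higher against the floor, with the empty vector at 0.534 and 0.406 CPM (log2 fold change 1.38, adjusted p = 1.02e-07). Wnt7b was at 28.4 and 31.8 CPM in cl12, at 62.1 and 66.6 CPM in cl16 and at 48.6 and 46.1 CPM with the empty vector (log2 fold change 1.07, adjusted p = 2.82e-07). In all 4 genes the empty vector libraries lay between the clones, so the clones moved to opposite sides of their control. Each clone stands for 1 line, and clonal differences cannot be told apart from the dose of Platr18. Wnt7b lost its call between the clones under median ratio scaling and without cl12 replicate 1.

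Other genes of the pathway were read from lists of textbook members, with the same limit for testing. Lgr6, Ptk7, Prickle1, Vangl2, Sp8 and Ephb3 were at most 0.113 CPM in NMuMG and reached it through conditions where they were high. The values that admitted such genes also enter their calls and the list medians. Of 19 genes of ligand secretion and receptor partners, 11 were tested. In E1KD against NMuMG, 4 of them were higher and 1 was lower (median change 0.70), where 6.44% and 2.99% of all genes were (median 0.17). Lgr6, another R-spondin receptor, rose (log2 fold change 2.72), as did Adgra2, which works with Reck in the Wnt7 response of blood vessels (1.5). Porcn, the enzyme that attaches the lipid to Wnt proteins, fell (-1.64). After TGFβ 3 were higher and 0 were lower, where 5.85% and 7.67% of all genes were: Lgr6 rose from 0.0885 and 0.0566 to 10.6 and 9.80 CPM (3.38), Wls, the carrier of Wnt proteins to the cell surface, from 47.9 and 50.6 to 144.5 and 149.2 CPM (1.56), and Kremen1, a receptor of Dkk proteins, by 1.45. In E1KD SCR against the empty vector, 1 was higher and 2 were lower, where 2.91% and 3.07% of all genes were, with Porcn again lower (-1.72).

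Of the 39 genes of the β-catenin relay, from the destruction complex to the TCF co-repressors, 34 were tested. In E1KD against NMuMG limma called 0 of them (median change 0.13), where 6.44% of all genes were called higher and 2.99% lower. At an unadjusted p under 0.05, 13 were higher and 11 lower, where 43% and 18.4% of all genes were. After TGFβ 1 was higher (Csnk1e, a casein kinase, 1.17) and 1 lower (Tle2, a co-repressor, -1.67), where 5.85% and 7.67% of all genes were. In M1P against E1KD 1 was lower, where 2.43% of all genes were: Bcl9, a β-catenin co-activator (-1.11). Ctnnbip1, an inhibitor of the β-catenin and TCF contact, was the 1 gene called in E1KD SCR (-1.23), where 3.07% of all genes were lower. Of 16 genes of the planar cell polarity arm, 13 were tested. In E1KD Prickle1 (3.23) and Vangl2 (2.87) rose and the cadherin Celsr2 fell (-4.10). The same 3 genes were called in the same direction in E1KD SCR, at 2.23, 2.00 and -2.22. Of all genes, 6.44% were called higher and 2.99% lower in E1KD, and 2.91% and 3.07% in E1KD SCR. After TGFβ Daam1, a formin, was the 1 gene of this list called (1.76), where 5.85% of all genes were higher and 7.67% lower. Prickle1 (-1.81) and Celsr1 (-1.22) were lower in M1P than in E1KD, where 2.43% of all genes were. Vangl2 was higher in L1P than in M1P, at 10.9 and 11.1 CPM against 4.96 and 4.77 CPM (1.03), where 0.743% of all genes were.

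Of 26 further textbook targets of β-catenin, 18 were tested. In E1KD 7 of them were higher and 0 lower, where 6.44% and 2.99% of all genes were (median change 0.85, against 0.17 for all genes). The largest changes among them were those of Wisp1, a secreted matricellular protein (4.19), the transcription factor Sp8 (2.57), the ephrin receptor Ephb3 (1.94) and Jun (1.73). Sp8 (0.0708 and 0.0754 CPM in NMuMG) and Ephb3 (0.106 and 0.0566 CPM) were tested through conditions where they were high. After TGFβ 5 were higher and 6 were lower, where 5.85% and 7.67% of all genes were (median change -0.06). Wisp1 rose from 7.51 and 8.50 to 145 and 150 CPM (4.05), whereas Id2 (-3.79), the survivin gene Birc5 (-2.87) and the intestinal factor Cdx2 (-2.67) fell. In E1KD SCR 4 were higher and 0 lower, where 2.91% and 3.07% of all genes were: Wisp1 (1.66), Cdx2 (1.42), Sp8 (1.40) and Ephb3 (1.32). In M1P against E1KD 1 was higher, the adhesion molecule Nrcam (1.61), and 3 were lower, Ephb3 (-1.98), Cdx2 (-1.53) and Sp8 (-1.49). Of all genes, 1.16% were higher and 2.43% lower in that comparison. These lists hold genes that also answer to other signals, and a count of them does not measure β-catenin activity. Under Platr18 silencing limma called 0 genes of the 4 lists. At an unadjusted p under 0.05, 4 of the 34 relay genes were higher and 7 lower, 1 and 5 of the 11 secretion and partner genes, 1 and 3 of the 13 polarity genes, and 0 and 4 of the 18 targets, where 13.1% and 17.6% of all genes were. For both clones against the empty vector limma also called 0, and at that unadjusted p 1 relay gene was higher and 8 lower, 3 and 3 secretion and partner genes, 1 and 6 polarity genes, and 8 and 3 targets, where 18.3% and 20.1% of all genes were. The medians over each list lay between -0.18 and 0.089 in these 2 comparisons.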

How the data were processed

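RNA was extracted with Trizol, and the sequencing reads were aligned by the authors with Bowtie2 2.2.5 to GRCm38.p6 (submitters' processing notes) and assigned to the mouse M18 annotation by Partek's expectation-maximization method, which can share reads between genes. Use of strand is not given in the sources used here. The deposited table holds CPM values for 54986 genes, to each of which the authors added 0.0001; this was subtracted here. From the values of low genes, 93.9% to 94.7% (first kind of library) and 97.6% to 98.3% (second kind) were whole reads within 0.1 read, so counts were not recovered. Floors and read numbers cover counting error only.

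The 17103 genes that reached 1 CPM in 2 or more of the 20 libraries were fitted as log2(CPM + 1) with limma 3.58.1 in R 4.3.3 (lmFit, eBayes with trend; 10 condition means, 10 residual degrees of freedom) and called at p under 0.001 and an absolute change of at least 1. Fold changes on this scale understate changes of low genes. The exact permutation test was not used, since 2 libraries against 2 cannot reach 0.05. Whether the libraries of a condition come from separate cultures is not stated, so p-values measure the spread between libraries. Per-length levels used GENCODE exon lengths. The script was tested on simulated data. Tables and figures used Python 3.11.15, pandas 2.3.3 and matplotlib 3.10.9. Genes called in any comparison were named with their values; of other pathway lists, up to 4 of the largest called changes. The genes and lists were chosen with earlier results of these data known.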

Additional observations from a re-analysis of the deposited data

Results flagged for a closer look

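The change with hnRNP E1 silencing differed between the NMuMG lines and the vector lines for 5 genes, by limma's test of the difference. The E1KD change minus the E1KD SCR change on the log2(CPM + 1) scale was 2.59 for Wnt7a, 1.16 for Axin2, 1.11 for Tcf7, 1.13 for Fzd6 and -1.15 for Fzd8. The kind of library, the vectors and E1KD replicate 1 move with this difference; the median difference over all genes was 0.17, and -0.001 after scaling by median ratios. Under that scaling the differences were 2.42 for Wnt7a, 1.00 for Axin2, 0.95 for Tcf7, 0.93 for Fzd6 and -1.17 for Fzd8, and without E1KD replicate 1 they were 2.40, 1.00, 1.15, 0.98 and -1.15. With a pseudocount of 0.1 the differences of Tcf7 (0.44) and Axin2 (0.96) were no longer called. The ratios of the means of Tcf7 were 6.98 and 7.002 in the 2 comparisons.

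The change with Platr18 overexpression differed between the clones for 4 genes. The cl16 value minus the cl12 value was -1.97 for Rspo3, -1.67 for Fzd6, 1.38 for Fzd1 and 1.07 for Wnt7b, each with the empty vector between the clones. With each clone against the empty vector alone, Rspo3 stood at 1.49 in cl12 and -0.49 in cl16, Fzd6 at 0.54 and -1.12, Fzd1 at -0.55 and 0.82, and Wnt7b at -0.64 and 0.43. Their dependence on Platr18 dose was not tested.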

How the results depend on the processing

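Counts of called genes among the 24 moved with the pseudocount and with the limit on low values. With a pseudocount of 0.1 in place of 1, 12 were called after TGFβ (6 in the report), 2 in L1P (0), 4 with both clones (0), 9 between the clones (4), 5 with Platr18 silencing (0) and 13 in E1KD SCR (6). Of all genes, 18.4% were then called after TGFβ (13.5%), 2.72% in L1P (1.21%), 3.6% with both clones (1.46%), 7.96% between the clones (4.39%), 3.7% with Platr18 silencing (1.48%) and 9.98% in E1KD SCR (5.98%). With a mean of at least 5 CPM only 14 genes were tested, and 4 were called in E1KD (11), 3 after TGFβ (6), 4 between E1KD and TGFβ (13), 2 in M1P (7), 2 between the clones (4), 3 in E1KD SCR (6) and 1 for the difference between the silencing changes (5). Of all genes, 8.23% were then called in E1KD (9.44%), 14.8% after TGFβ (13.5%) and 25.7% between E1KD and TGFβ (23.3%). The shares were 2.86% in M1P (3.59%), 4.13% between the clones (4.39%), 4.84% in E1KD SCR (5.98%) and 2.67% for that difference (3.51%). Median ratio scaling gave 10 after TGFβ and 2 for that difference, where 13.6% and 3.18% of all genes were called. Only the compared conditions in the fit gave 8 between E1KD and TGFβ, where 7.99% of all genes were called. In alternatives chosen after seeing the data, cl12 alone and cl16 alone gave 1 each against the empty vector (Rspo3 and Fzd6). Of all genes, 3.64% and 1.78% were called there. Leaving out 1 library at a time gave 3 to 7 for the silencing difference, 6 to 9 after TGFβ, 11 to 12 in E1KD, 12 to 14 between E1KD and TGFβ, 7 to 8 in M1P, 3 to 4 between the clones, 6 in E1KD SCR and 0 elsewhere. Of the 52 calls of single genes, none changed sign under any alternative. Of the 52, 10 lost their call with only the compared conditions, 5 under median ratio scaling, 3 under equal sums and 2 with pseudocount 0.1, and 6 of 228 leave-one-out results did.

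Libraries with the same replicate number share only that number, with deviations correlated at -0.39 to 0.29. With the replicate block in the fit all counts stayed the same: 11 in E1KD, 6 after TGFβ, 13 between E1KD and TGFβ, 7 in M1P, 4 between the clones, 6 in E1KD SCR, 5 for the silencing difference and 0 elsewhere. The crossed pairing, chosen after seeing the data, gave 13 between E1KD and TGFβ and 0 with both clones. With the sum of both Fzd6 rows, also chosen afterwards, Fzd6 kept its 2 calls and gained 1, after TGFβ. Genes under 1 CPM, and folds against conditions without reads, are limited by depth.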
